A study of Oryctolagus cuniculus with 8 samples.

Results

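The transcripts of 3 genes of vasoactive peptide signalling, BDKRB1, EDNRB and ACE, were followed across cultured rabbit stem cells and the body cells from which stem cells had been made. The genes were picked by accession, taking every non-control probe that the array files assign to the RefSeq transcripts NM_001082347 (BDKRB1), NM_001082721 (EDNRB) or NM_001082395 (ACE). This gave 11 of 43603 probes, namely 1 probe for BDKRB1, 4 for EDNRB and 6 for ACE, and 3 of the 680 genes that could be named. The genes were selected on their difference from somatic cells in these same arrays, so all values set against somatic cells are given as a description, with no test. Of the 11 probes, 10 stood well above background on both arrays of at least 1 group and entered the tests, and 1 ACE probe failed that mark on every array.

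RNA was measured on 8 one-colour Agilent arrays, 1 array per sample, all from cells of Dutch rabbits. Late iPS cells were the liver line iPS-L1 at passage 23 and the stomach line iPS-S1 at passage 22, and early iPS cells were the same lines at passages 7 and 6. Induced pluripotent stem (iPS) cells are body cells reprogrammed to a state like that of embryonic stem cells, and each line here is the only one of its tissue. Embryonic stem (ES) cells were the lines rdES4 and rdES2-1, and somatic cells were 1 sample of liver cells and 1 of stomach cells. iPS and ES cells shared a culture medium that the liver and stomach cells did not, so that medium and cell type cannot be told apart. The labels name neither the reprogramming factors nor separate cultures or animals, so the p-values cover the spread among these samples alone, which may be partly technical. Levels below are log2 signals minus the 75th percentile of the array, so a level of 0 is the 75th percentile.

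Kinins are short peptides cut from kininogens by kallikreins. They act on a constitutive receptor, B2, and on the inducible receptor B1 encoded by BDKRB1, which is known to appear after tissue injury and inflammatory cytokines. Endothelins are vasoconstrictor peptides that signal through the receptors encoded by EDNRA and EDNRB, and EDNRB is also known for its role in the neural crest. ACE, angiotensin-converting enzyme, links the pathways, since it makes angiotensin II from angiotensin I and also degrades bradykinin.

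The array itself differed between the cell types. Before scaling, the 75th percentile of signal ranged from 296.9 to 341.5 on the iPS arrays, was 273.8 and 310.2 on the ES arrays, and was 163.8 and 154.8 on the liver and stomach cell arrays. The share of probes well above background was 62.4% to 64.0% in iPS cells, 64.0% and 64.7% in ES cells, and 57.8% and 58.4% in somatic cells. The pluripotency gene POU5F1 had levels of 7.08 to 7.62 in iPS cells, 7.14 and 6.69 in ES cells, and -3.63 and -3.46 in somatic cells. ALB and APOA1, defining transcripts of hepatocytes, did not reach the background mark on any array, liver cells included. The other 5 genes of the hepatocyte list (TF, HP, HPX, RBP4 and APOE) reached it on all 8 arrays, and RBP4 was at 1.89 in liver and 3.75 in stomach cells. The 7 genes summed to 3.43 to 4.05 times the 75th percentile in iPS cells, 4.39 to 5.94 in ES cells, and 4.65 in liver and 20.0 in stomach cells. Of the gastric transcripts ATP4B was below the background mark on all 8 arrays, while PGC, at -3.95 and -4.08 in somatic cells, was above it on all 8. ATP4A was above it on every array but that of liver cells (-4.66), and was at -4.40 in stomach cells. The 3 gastric genes summed to 0.14 to 0.20 times the 75th percentile in iPS cells, 0.17 to 0.18 in ES cells, and 0.16 in liver and 0.12 in stomach cells. The fibroblast markers DCN, MGP, MMP2 and CAV1, summed as multiples of the 75th percentile of the array, reached 2.08 to 3.14 in iPS cells, 1.88 to 2.21 in ES cells, and 105.6 to 197.8 in somatic cells. The smooth muscle markers, 5 genes, summed to 30.7 to 49.3 in iPS cells, 25.3 to 35.8 in ES cells, and 98.0 to 253.4 in somatic cells. All 4 tested fibroblast markers and all 4 tested smooth muscle markers were lower in iPS than in somatic cells (limma, adjusted p under the threshold of 0.05). Over all tested probes 66.6% passed in this comparison, in either direction. DCN and TPM2 entered the tests only through the somatic arrays, and MYH11 was not tested. What part the cell types of these markers had in the levels of the 3 genes was not tested. Fewer cells of a type and less RNA per cell cannot be told apart in bulk RNA.

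**Figure D1:**
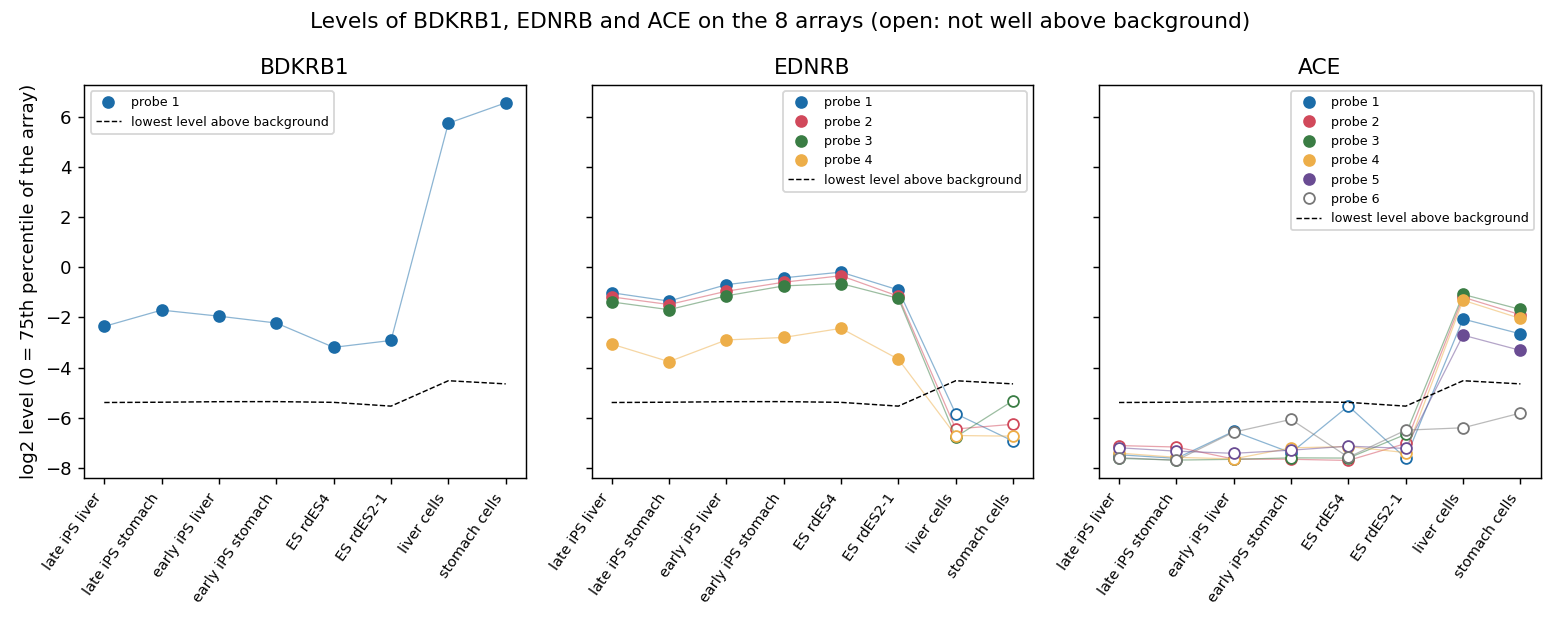
Levels of every BDKRB1, EDNRB and ACE probe on the 8 arrays (y axis: log2 signal minus the 75th percentile of the array; x axis: samples, with late iPS leftmost and somatic cells rightmost). Filled points are well above background, open points are not, and the dashed line is the lowest level well above background on each array. BDKRB1 reached 5.75 and 6.57 in somatic cells, EDNRB was well above background in stem cells alone, and ACE in somatic cells alone.

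BDKRB1, the inducible kinin receptor, was low but measurable in every stem cell sample and among the bright transcripts of both somatic samples. Its level was -2.36 in the late liver iPS line and -1.71 in the late stomach iPS line. At early passage the same lines had levels of -1.95 and -2.22. The ES lines rdES4 and rdES2-1 had levels of -3.19 and -2.92, and liver and stomach cells had levels of 5.75 and 6.57. The probe was well above background on all 8 arrays, and the order was somatic cells, then iPS cells, then ES cells, with no overlap between the 3.

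As processed signal before scaling, the BDKRB1 spot gave 66.6 and 90.9 in late iPS cells, 88.2 and 65.4 in early iPS cells, 29.9 and 41.0 in ES cells, and 8836 and 14700 in somatic cells. The level averaged -2.06 ± 0.13 in iPS cells and 6.16 ± 0.58 in somatic cells (SD, n = 2 lines and 2 samples), a log2 difference of -8.22 or 298.3-fold. In ES cells it averaged -3.06 ± 0.19 (SD, n = 2), a difference of -9.22 or 595.4-fold from somatic cells. These are the values on which the gene was chosen. Across all tested probes, 66.6% passed the threshold between iPS and somatic cells and 64% between ES and somatic cells, and 77.8% and 82.7% had no overlap of arrays in those comparisons. The BDKRB1 differences therefore stand only as sizes. With the normexp background correction, which also adds an offset of 50 to each signal, they were -7.29 and -7.66.

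Each iPS line can also be set against the tissue it was made from. The liver iPS line, averaged over its passages, differed from liver cells by -7.91 on the log2 scale, on arrays of a single slide. The stomach iPS line differed from stomach cells by -8.53, on different slides. rdES4 differed from liver cells of its slide by -8.95, and rdES2-1 from stomach cells of its slide by -9.49. Each of these 4 differences compares single lines and has no replicate check. Liver minus stomach cells gave a log2 difference of -0.82, with 1 array each.

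Among the stem cells, BDKRB1 was the 1 gene of the 3 with separate iPS and ES values. Every iPS array, at -2.36 to -1.71, lay above both ES arrays, at -3.19 and -2.92. The log2 difference of iPS minus ES cells was 1.00 ± 0.30 (SE), with a 95% confidence interval of 0.22 to 1.77. It did not pass limma's test after Benjamini-Hochberg adjustment over 28844 probes (adjusted p = 0.584), and no probe of the array passed in this comparison (0%, with 2140 probes under an unadjusted p of 0.05). iPS arrays lay above both ES arrays at 10.5% of all tested probes. On slide 1, the liver iPS line was above rdES4 by 1.04. With the normexp background correction the difference was 0.37.

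Both passages contributed. Late iPS cells were above ES cells by 1.02 ± 0.34 (SE) on the log2 scale (adjusted p = 0.507) and early iPS cells by 0.97 ± 0.34 (adjusted p = 0.374, limma). Late minus early iPS cells gave 0.05 ± 0.34 (adjusted p = 0.988), with an interval of -0.77 to 0.88. Late minus early was -0.41 in the liver line and 0.52 in the stomach line, so the lines went opposite ways. In these comparisons 0.0208% of probes passed between late iPS and ES cells, 0.0416% between early iPS and ES cells and 0.0277% between late and early iPS cells.

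**Figure D2:**
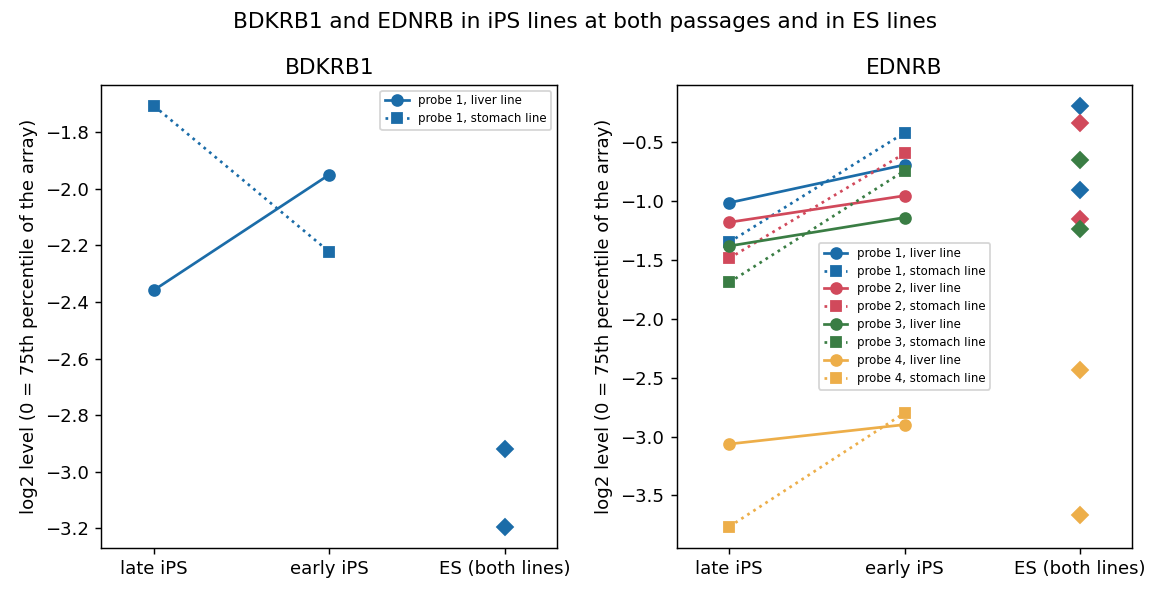
Levels of BDKRB1 and of the 4 EDNRB probes in late iPS, early iPS and ES cells (y axis: log2 signal minus the 75th percentile of the array). Lines join the late and early arrays of 1 iPS line; circles with solid lines are the liver line, squares with dotted lines the stomach line, and diamonds the 2 ES lines. EDNRB was lower at late passage in both lines on every probe, while BDKRB1 went down in the liver line and up in the stomach line.

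EDNRB, the endothelin B receptor, had the opposite distribution. On its brightest probe the level was -1.01 and -1.35 in late iPS cells, -0.69 and -0.42 in early iPS cells, and -0.19 and -0.90 in ES cells. The probe was not well above background in liver cells (-5.84) or stomach cells (-6.94). As processed signal, the same probe gave 169.2 and 116.6 in late iPS cells, 211.0 and 228.3 in early iPS cells, 239.9 and 165.9 in ES cells, and 2.85 and 1.26 in somatic cells. The other 3 probes were likewise well above background on all 6 stem cell arrays and on neither somatic array.

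Since somatic cells gave only a bound, folds were taken against the lowest signal that counted as above background on those arrays. EDNRB was at least 13.2-fold higher in iPS cells (mean level -0.87) than in somatic cells (mean measured level -6.39), and at least 16.5-fold higher in ES cells (mean level -0.55) than in somatic cells. Over the 4 probes the bound ran from 2.75-fold to 13.2-fold for iPS cells and from 2.91-fold to 16.5-fold for ES cells. The lowest bound belonged to the dimmest probe, whose level was -3.13 in iPS cells and -3.05 in ES cells. By tissue, the bound was at least 12.8-fold for the liver iPS line over liver cells and at least 13.6-fold for the stomach iPS line over stomach cells. On the log2 scale the bounds of 3.72 for iPS and 4.04 for ES cells became 1.27 and 1.54 with normexp. The gene was chosen on these differences too. Whether a low amount of EDNRB RNA was present in liver and stomach cells was not detectable on these arrays.

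iPS and ES cells overlapped in EDNRB. On the brightest probe, iPS minus ES cells was -0.32 ± 0.43 (SE) on the log2 scale, with an interval of -1.42 to 0.77 and an adjusted p of 0.916 (limma). The 4 probes gave -0.32 to -0.08, with adjusted p from 0.864 to 0.984. On slide 1, the liver iPS line minus rdES4 was -0.66. The ES lines themselves were apart: rdES4 was above rdES2-1 on all 4 probes, by 0.71, 0.82, 0.59 and 1.23. The interval allows iPS cells to differ from ES cells in either direction by more than the measured difference.

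EDNRB was lower at late than at early passage in both iPS lines on all 4 probes. In the stomach line the log2 difference of late minus early ran from -0.97 to -0.89 over the probes, and in the liver line from -0.32 to -0.16. Both arrays of a line shared a slide. The mean difference on the brightest probe was -0.63 ± 0.41 (SE), with an interval of -1.63 to 0.38, and it did not pass (adjusted p = 0.752, limma). The 4 probes ran from -0.63 to -0.56, with adjusted p from 0.680 to 0.816. Late and early arrays did not overlap on any of the 4 probes, with late the lower, as at 25.4% of all tested probes. The probes share RNA and arrays, so their likeness is no replication of the cultures.

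Early iPS cells overlapped with ES cells in EDNRB, with a log2 difference of -0.01 ± 0.41 (SE) on the brightest probe (adjusted p = 0.996, limma), an interval of -1.01 to 0.99. Late iPS minus ES cells was -0.63 ± 0.41 (adjusted p = 0.817). Late iPS arrays lay below both ES arrays on 3 of the 4 probes, against 24.3% of all tested probes, and on the dimmest probe rdES2-1 at -3.67 lay between late iPS arrays at -3.06 and -3.76. None of these differences passed. The test pools the spread of all 4 groups, somatic cells included, where EDNRB was below background. On the brightest probe the SD was 0.77 in somatic, 0.24 in late iPS, 0.19 in early iPS and 0.50 in ES cells (n = 2 each).

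**Figure D3:**
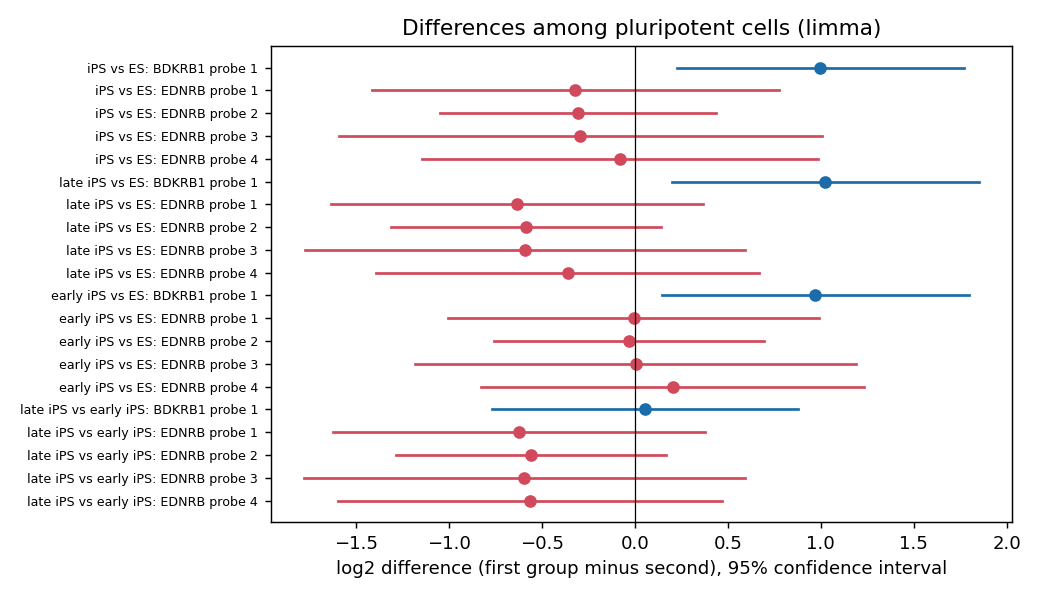
Differences among pluripotent cells for BDKRB1 and the 4 EDNRB probes (x axis: log2 difference, first-named group minus second; points: limma estimate; bars: 95% confidence interval, not adjusted for the number of probes). BDKRB1 intervals against ES cells lay above 0, from 0.15 at their lowest, though none passed after adjustment, and every EDNRB interval spanned 0.

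Correlations between the EDNRB probes over the 6 stem cell arrays ran from 0.847 to 0.992 (Pearson's r, 6 pairs of probes, a description). The probes share the arrays and the scaling.

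ACE was well above background in somatic cells alone. Of its 6 probes, 5 were well above background in both liver and stomach cells, and none was so on any of the 6 stem cell arrays. The brightest of these in somatic cells, probe 3 in the plot, had levels of -7.63 and -7.70 in late iPS cells, -7.66 and -7.61 in early iPS cells, -7.62 and -6.67 in ES cells, and -1.08 and -1.68 in liver and stomach cells. Its processed signal was 1.73 and 1.43 in late iPS cells, 1.68 and 1.57 in early iPS cells, 1.40 and 3.05 in ES cells, and 77.5 and 48.3 in somatic cells. The stem cell values have no order, being under the background limit.

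The probe that stood for ACE, the one with the highest mean over all 8 arrays, had somatic levels of -2.06 and -2.66. On it ACE was at least 8.09-fold lower in iPS than in somatic cells (measured means -7.26 and -2.36) and at least 8.61-fold lower in ES than in somatic cells (measured means -6.58 and -2.36). Over the 5 measured probes the bounds ran from 5.15-fold to 16.0-fold for iPS cells, with a median of 13.0-fold, and from 5.48-fold to 17.0-fold for ES cells. In the liver iPS line against liver cells the same probe gave at least 9.96-fold lower, and in the stomach iPS line against stomach cells at least 6.57-fold lower. With normexp the log2 bounds of -3.02 for iPS and -3.11 for ES cells became -1.33 and -1.24. The sixth probe was at -6.41 in liver cells and -5.82 in stomach cells, not well above background, so it disagreed with the other 5.

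Between the somatic samples ACE ran the opposite way to BDKRB1. Liver minus stomach cells was 0.59, 0.70, 0.60, 0.73 and 0.61 on the 5 measured ACE probes, with 1 array each and no test. No comparison of ACE among late iPS, early iPS and ES cells could be made, since all were below the limit. Correlations between the 5 ACE probes over all 8 arrays ran from 0.924 to 0.999 (Pearson's r, 10 pairs, a description that reflects mostly the gap between somatic and stem cells).

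The named transcripts nearest to each gene were found by the root mean square (RMS) difference of centred profiles over the 8 arrays, among 508 other named genes. For every gene, values not well above background were first raised to at least the lowest level well above background on that array. The levels printed below are the measured ones. For BDKRB1 the nearest was PTGS2, the inducible cyclooxygenase, with an RMS difference of 0.68 on the log2 scale. PTGS2 had levels of -3.36 and -2.89 in late iPS cells, -3.08 and -4.25 in early iPS cells, -3.06 and -2.79 in ES cells, and 4.89 and 5.34 in somatic cells. Next came IL6 (0.80), IL1RN (0.83), LGALS3 (0.84) and VCAM1 (0.85), which encode an inflammatory cytokine, the interleukin-1 receptor antagonist, galectin-3 and a leukocyte adhesion molecule.

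For EDNRB the nearest included SHMT1 (RMS difference 0.26), NASP (0.36), CKMT2 (0.42) and GCSH (0.43). With its somatic arrays raised to the limit, the EDNRB gap of iPS minus somatic cells in these profiles was 3.72, against 5.52 as measured. SHMT1 and GCSH act in serine and glycine metabolism, and NASP carries histones. SHMT1 had levels of 1.84 and 1.74 in late iPS cells, 2.43 and 2.11 in early iPS cells, 2.22 and 1.85 in ES cells, and -1.59 and -2.17 in somatic cells. For ACE, whose stem cell arrays were raised in the same way, the nearest were MGST3 (0.16), SLC3A2 (0.23), WARS1 (0.24), AHR (0.26) and CD14 (0.27). The 8 arrays form separate clusters of stem and somatic cells, so these distances mostly reflect the size of that gap.

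Of the other genes of the kinin, endothelin and angiotensin pathways with a named probe, 5 were tested and 3 could not be. Between iPS and somatic cells 1 of the 5 was higher, 2 were lower and 2 did not pass, with a median log2 difference of 0.51, against 0.02 over all tested probes. Between ES and somatic cells the counts were the same, 1 higher, 2 lower and 2 not passing, with a median of 0.64 against 0.07. Over all tested probes 66.6% and 64% passed in these comparisons. The medians are the values of ANPEP (iPS) and AGTR2 (ES), neither of which passed. MME, the gene that was higher, entered the tests only through the stem cell arrays, as did ANPEP and AGTR2. None of the 5 passed between iPS and ES cells or between the passages. The split between iPS and somatic cells moved with the processing, to 1 higher and 4 lower with normexp and to 2 higher and 0 lower without scaling between arrays.

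On the ligand side, EDN1, the precursor gene of endothelin-1, was lower in iPS than in somatic cells, with a log2 difference of -0.92 ± 0.15 (SE, adjusted p = 0.00401, limma). Its levels were 1.53 and 1.60 in late iPS cells, 1.67 and 1.63 in early iPS cells, 1.77 and 1.55 in ES cells, and 2.44 and 2.62 in somatic cells. EDN2, the precursor gene of endothelin-2, was below the background mark on all 8 arrays. KLK1, tissue kallikrein, which releases kinins, was below it on all 8 arrays as well.

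Among receptors, EDNRA, the endothelin A receptor, was higher in somatic than in stem cells. It had levels of -0.20 and -0.13 in late iPS cells, 0.04 and -0.14 in early iPS cells, 0.29 and -0.07 in ES cells, and 1.07 and 1.28 in somatic cells. iPS minus somatic cells was -1.29 ± 0.18 (SE, adjusted p = 0.00246) and ES minus somatic cells -1.07 ± 0.18 (adjusted p = 0.00471, limma). These modest differences rest on the scaling: without scaling between arrays EDNRA gave -0.28 (adjusted p = 0.235) and EDN1 turned to 0.08 (adjusted p = 0.688) between iPS and somatic cells, where the median of all probes moved to 1.03. With the slide as a block, the adjusted p between iPS and somatic cells was 0.0585 for EDNRA and 0.081 for EDN1.

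The angiotensin receptors differed from each other in where they were measured. AGTR1, the main receptor of angiotensin II, was well above background in liver cells alone, at a level of -0.18. It was at -6.68 and -6.95 in late iPS cells, -7.42 and -6.69 in early iPS cells, -7.03 and -6.18 in ES cells and -6.47 in stomach cells. Liver cells were thus at least 22.2-fold above each of the other 7 arrays, on 1 array and 1 probe. The probe was not tested, because the stomach cells of the same group were below background.

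AGTR2, the second angiotensin II receptor, was measured in all stem cells and in neither somatic sample. Its levels were -3.82 and -3.46 in late iPS cells, -4.49 and -3.61 in early iPS cells, -4.83 and -3.27 in ES cells, and -4.36 and -5.02 in somatic cells. It did not pass between iPS and somatic cells (log2 difference 0.85 ± 0.58 SE, adjusted p = 0.245, limma), and the levels of stem and somatic cells overlapped. With the normexp background correction and its offset the difference turned to -0.48 (adjusted p = 0.00812), where the median of all probes moved to -0.40. Without scaling between arrays it was 1.86 (adjusted p = 0.0296). The ES difference of 0.64 turned to -0.14 without rdES2-1.

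Other peptide-degrading enzymes were on the array too. MME, neprilysin, which degrades kinins, endothelins and angiotensins, had levels of -0.52 and -0.46 in late iPS cells, -0.93 and -0.88 in early iPS cells, -0.54 and -0.14 in ES cells, -2.30 in liver cells and -4.90 in stomach cells, the last not well above background. It was higher in iPS than in somatic cells by 2.90 ± 0.84 (SE, adjusted p = 0.0291) and in ES than in somatic cells by 3.26 ± 0.84 (adjusted p = 0.0207, limma), with the same sign on 3 of 3 probes. MME entered the tests only through the stem cell arrays, where it was high, so that filter favoured this direction. The iPS difference was 1.60 without stomach cells, 4.20 without liver cells and 0.96 with normexp, and it passed in each. The ES difference was 1.96, 4.56 and 1.28 under the same changes. The call did not hold without rdES4 (adjusted p = 0.0583 and 0.0712) or without rdES2-1 (adjusted p = 0.0583 and 0.0947), nor with the slide as a block (adjusted p = 0.186 and 0.0519).

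ANPEP, aminopeptidase N, which trims angiotensin III, did not pass between iPS and somatic cells (0.51, adjusted p = 0.715), and liver and stomach cells lay on either side of the stem cells. Its levels ran from -3.91 to -3.46 in iPS cells, were -3.43 and -3.30 in ES cells, and were -6.03 in liver cells, not well above background, and -2.38 in stomach cells. Set against liver cells alone the iPS difference was 2.33, and against stomach cells alone -1.32.

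**Figure D4:**
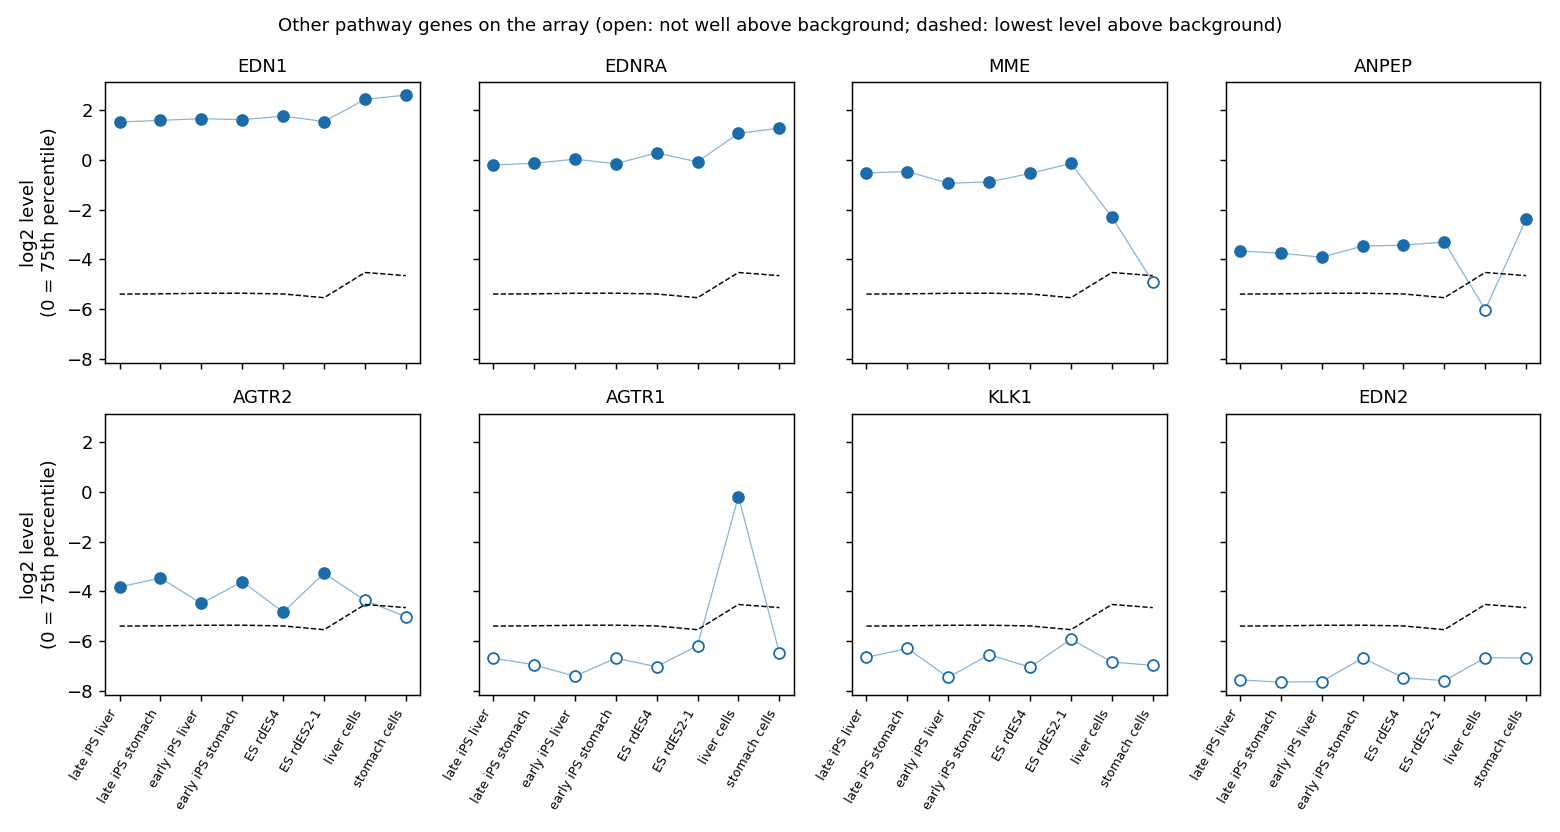
Levels of 8 other pathway genes on the 8 arrays (y axis: log2 signal minus the 75th percentile of the array; x axis: samples; filled: well above background; open: not; dashed: lowest level well above background). EDN1 and EDNRA were higher in somatic than in stem cells, MME was lower, AGTR1 reached -0.18 in liver cells alone, and KLK1 and EDN2 stayed under the limit throughout.

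Receptors for other vasoactive mediators and the signalling genes downstream were counted in the same way. Of 4 tested receptors, 1 was higher and 3 were lower in iPS than in somatic cells, where 66.6% of all tested probes passed. ADRA1B, among the lower, was well above background in somatic cells alone, and ADRA2A, the higher, in stem cells alone. Each entered the tests only through those arrays, so their directions were set by that filter. PTGER2, a prostaglandin E2 receptor, was at 8.68 to 8.93 in iPS cells, 9.18 and 8.95 in ES cells, and 9.65 and 9.71 in somatic cells. Its log2 difference of iPS minus somatic cells was -0.83 ± 0.15 (SE, adjusted p = 0.00552, limma), though its second probe had the opposite sign and quantile normalization turned the difference to 0.02 (adjusted p = 0.881). With the slide as a block its adjusted p was 0.0728.

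Of 9 tested signalling genes, 1 was higher and 4 were lower in iPS than in somatic cells, with a median log2 difference of -0.43. Over all tested probes 66.6% passed and the median was 0.02. PLA2G4A, among the lower, entered the tests only through the somatic arrays, where it was high, so its direction was set by that filter. The split became 5 higher and 3 lower when no scaling was applied. PRKCZ, an atypical protein kinase C, was higher in iPS than in somatic cells by 2.88 ± 0.19 (SE, adjusted p = 3.1e-04). PTGS1, the constitutive cyclooxygenase, was lower in iPS cells, with a difference of -3.87 ± 0.31 (adjusted p = 4.8e-04, limma). Its levels were -1.48 and -1.42 in late iPS cells, -0.08 and -0.84 in early iPS cells, -0.98 and -1.50 in ES cells, and 3.25 and 2.59 in somatic cells. PRKCB, a kinase C of the classical type, did not pass (0.91 ± 0.64, adjusted p = 0.255, limma), and the value rested on which somatic sample was used. It was 1.91 without stomach cells (adjusted p = 0.00112) and -0.088 without liver cells (adjusted p = 0.602), and 1.92 without scaling between arrays (adjusted p = 0.0258).

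The list of cytokines known to induce BDKRB1, mainly from work in other species, had 7 genes on the array, of which 5 were tested. TNF was below the background mark on all 8 arrays, and IL1B was above it in liver cells alone. All 5 tested genes were lower in iPS than in somatic cells, with a median log2 difference of -7.61. Of the 5, 4 were lower in ES than in somatic cells, with a median of -6.78. Both medians are the values of IL1A. Over all tested probes 66.6% and 64% passed in these comparisons, in either direction. IL6 and IL1A entered the tests only through the somatic arrays, where they were high, so their direction was set by that filter. The list was written with the somatic difference of BDKRB1 known, so its direction is no independent evidence. IL6, which was also among the genes nearest to BDKRB1, was below the background mark on every stem cell array. It was at least 125.3-fold lower in iPS and at least 133.3-fold lower in ES than in somatic cells, as a description. None of the 5 passed between iPS and ES cells.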

How the data were processed

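Per the file headers, the deposited values of each array were linear spot intensities, background-subtracted in Agilent Feature Extraction 10.5.1.1. The authors' deposited table of the series is on a log2 scale and matched the intensities once scaled by each array's 75th percentile, logged and centred per probe on the median (correlation of at least 0.999999 on each array). It served as an alternative.

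From the intensities, a level was computed as log2 of the processed signal less that array's 75th percentile, the 5 spots of each of 50 repeated probes were averaged, and 38 probes with an outlying spot were left out. Of the 45220 spots per array, 1417 were controls and 0 were saturated. Probes well above background on both arrays of at least 1 group were tested, 28844 in all, with limma 3.58.1 in R 4.3.3, two-sided, with Benjamini-Hochberg adjustment over all of them and a threshold of 0.05. iPS against ES and somatic cells used 6 units, each iPS line averaged over its passages. Passage comparisons used all 8 arrays in 4 groups. Symbols came from a RefSeq table of the rabbit, matched by accession (1933 probes of 680 genes). A gene's brightest probe by mean over all arrays stood for it. For a probe under background in a group, the fold is a bound from the lowest signal well above background on each array.

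The members and the gene lists were chosen with earlier results of these data known. Named genes were the 3 members, the pathway genes with a probe, the receptor and signalling genes with the highest mean level and the 5 named genes nearest in profile, of which 1 is not reported here. The arrays lay on 3 slides and 2 scan days: rdES4, the liver iPS arrays and liver cells shared a slide, rdES2-1 and stomach cells another, and both stomach iPS arrays the third. The number of arrays limits the precision. In the pairing check, deviations of the 2 iPS lines from their group means correlated at 0.22 between passages; the labels give both arrays of a line the same line name. Alternatives covered the background correction, scaling, filter, slide, line and left-out arrays. The normexp correction used median signals and added an offset of 50 to each. Correction and offset were changed together, so the part of each in the normexp values was not tested.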

Additional observations from a re-analysis of the deposited data

Results flagged for a closer look

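BDKRB1, the inducible kinin receptor, went opposite ways with passage in the 2 iPS lines. Late minus early was -0.41 on the log2 scale in the liver line and 0.52 in the stomach line, with 1 array at each passage of a line. The difference between the lines was not tested.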

How the results depend on the processing

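BDKRB1 kept its direction against somatic cells throughout, and neither it nor EDNRB passed the threshold between stem cell groups under any alternative. BDKRB1 minus somatic cells was -7.29 (iPS) and -7.66 (ES) with normexp, -7.21 and -8.35 without scaling, and -8.63 to -7.81 and -9.63 to -8.81 with an array left out. The log2 bound of EDNRB was 1.27 and 1.54 with normexp, 4.73 and 4.91 without scaling, 1.46 and 1.54 on its dimmest probe, and 3.02 and 3.27 over its probes. That of ACE was -1.33 and -1.24 with normexp, -2.01 without scaling (iPS), and -4.00 and -4.09 on probe 3. Against somatic cells, signs turned for AGTR2 (-0.48 iPS, -0.40 ES) and ANPEP (-0.59 iPS, -0.33 ES) with normexp, for ANPEP with dim arrays raised (-0.24, iPS), for AGTR2 without rdES2-1 (-0.14, ES), for PRKCB without liver cells (-0.088, iPS), for PTGER2 with quantile normalization (0.024 and 0.092) and without scaling (0.18 and 0.25), for EDN1 without scaling (0.085 and 0.0030), and for ANPEP without liver cells; with a somatic array left out ANPEP ran from -1.32 to 2.33 (iPS) and from -0.98 to 2.66 (ES). Among stem cells, signs turned in uncalled differences of late minus early iPS cells for BDKRB1 (without the early or the late stomach iPS array), of iPS minus ES cells for EDNRB (without rdES4), and of early iPS minus ES cells for EDNRB under 6 alternatives. PRKCB passed without stomach cells (1.91 iPS, 2.28 ES), without scaling (1.92 and 2.15) and, for ES cells, with normexp (1.13). The line as replicate block left 0 probes passing between late and early iPS cells, against 8, and changed no call of BDKRB1 or EDNRB; ACE was not tested there.

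Probes passing between iPS and ES cells numbered 2 without scaling and 6 with all iPS arrays entered, against 0. Between iPS and somatic cells 9927 passed with the slide as a block, against 19215. Late against early iPS cells, against 8, gave 0 with no filter, with probes measured on all arrays, with dim arrays raised and with the slide, and 0 to 1 with an array left out. Early iPS against ES cells, against 12, gave 6 with normexp, 25 with dim arrays raised, 0 with probes measured on all arrays or the slide, and 0 to 19 with an array left out. Late iPS against ES cells, against 6, gave 1 with quantile normalization, 0 with normexp, no filter, probes measured on all arrays, dim arrays raised or the slide, and 0 to 8 with an array left out. The share of higher calls between iPS and somatic cells was 51.4%, but 33.2% with normexp and 82.5% without scaling. Signal over background limits ACE in stem cells and EDNRB in somatic cells.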
